A study of Mus musculus with 76 samples.

Results

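The 10 genes described here encode proteins that neutrophils make or use: the calprotectin subunits S100a8 and S100a9, the granule proteins Ngp, Camp, Ltf, Retnlg, Prtn3, Elane and Mpo, and the receptor Csf3r. They are 10 of the 54232 genes in the count table, and all 10 have a row there. They were chosen by name because a few libraries, among them Heart PNx 1 and Heart PNx 2, held far more of their transcripts than the rest. The values in those Heart libraries are therefore a description, and no test of them is read. Calls in any tissue that rest on a library of this kind are also given as a description.

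Neutrophils are short-lived phagocytes that mature in the bone marrow and fill their granules in a fixed order. The azurophil granules come first and carry the serine proteases Elane and Prtn3 and the peroxidase Mpo, whose messages belong to the promyelocyte stage. The specific and gelatinase granules follow with Ltf (lactoferrin, which binds iron), Camp (cathelicidin, which yields an antimicrobial peptide), Ngp (a cystatin-like granule protein) and Retnlg (a resistin-like secreted protein). S100a8 and S100a9 pair to form calprotectin, which binds calcium and zinc and fills the cytosol of mature neutrophils, and Csf3r receives the growth factor Csf3 that drives the lineage.

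Male Fox Chase SCID mice aged 12 weeks gave total RNA from 3 tissues: heart, kidney and visceral fat (VFAT). All groups carry the Prkdc scid mutation, which removes mature T and B lymphocytes and leaves neutrophils in place. In each tissue the 5 arms were sham surgery without cells (Sham), partial nephrectomy without cells (PNx), and partial nephrectomy with transplanted Control Cells, Lenti-adipo-NaKtide cells or Lenti-adipo-scrambled cells (below: control, NaKtide and scrambled cells). NaKtide is a peptide that blocks signalling from the Na/K-ATPase to Src. The labels used here say neither what the cells were nor which promoter drives the peptide. The 76 libraries make 74 samples in 15 groups of 5, with 4 in VFAT scrambled cells. The labels do not say that samples of a group are separate animals, so p-values measure the spread between these samples, which may be technical.

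Heart libraries held 2803991 to 12986214 counts, Kidney libraries 1241590 to 16912788 and VFAT libraries 5666563 to 20037187. Levels are CPM, counts scaled to a common library total, so a level of 1 CPM rests on few counts. Heart muscle markers (Myh6, Tnnt2 and 3 others) summed to 22933 to 40670 CPM in the Heart samples, tubule and glomerulus markers to 10909 to 17104 CPM in Kidney, and adipocyte markers to 2202 to 15389 CPM in VFAT, leaving out the 6 libraries defined below. All are bulk samples, in which fewer cells of a type and less RNA per cell cannot be told apart.

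The 10 genes lie on 6 chromosomes in GENCODE M21 on GRCm38. S100a8 (ENSMUSG00000056054, chr3:90668978-90670035, plus strand) and S100a9 (ENSMUSG00000056071, chr3:90692632-90695721, minus strand) are neighbours 22596 bases apart. Ngp (ENSMUSG00000032484, chr9:110419747-110423012), Camp (ENSMUSG00000038357, chr9:109847379-109849617, minus strand) and Ltf (ENSMUSG00000032496, chr9:111019271-111042767) share chromosome 9 but are not adjacent. Prtn3 (ENSMUSG00000057729, chr10:79874476-79883174) and Elane (ENSMUSG00000020125, chr10:79886247-79888215) are 3072 bases apart, and the adipocyte gene Cfd (chr10:79890853-79892655) starts 2637 bases after Elane. The annotated Prtn3 overlaps Plppr3 on the other strand, and whether the counting used strand is not given in the sources used here. Reads in the overlap therefore cannot be assigned to either gene with certainty. Retnlg (ENSMUSG00000022651, chr16:48872621-48874496), Mpo (ENSMUSG00000009350, chr11:87793581-87804413) and Csf3r (ENSMUSG00000028859, chr4:126024550-126044440) stand alone, except that Mpo overlaps the antisense gene Gm11505, which had 0 counts in every sample.

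The promoters of genes that rose together in the same libraries are shown because their letters can be set beside the granule class. All 10 matched RefSeq promoter windows on GRCm38.p6 (250 bases before the start to 50 after it). A C/EBP core (TTGCNNAA, both strands) occurred in 4 of them: S100a9, Ngp, Ltf and Retnlg. A PU.1 core (AGGAAGT, both strands; the 2 motifs did not overlap) occurred in 4 others, S100a8, Prtn3, Elane and Mpo, and neither was in the Camp or Csf3r window. Over all 32851 promoters of this length, 10.8% held the C/EBP core and 9.35% the PU.1 core. In the windows of Ngp (chr9:110419558-110419857, plus strand) and Ltf (chr9:111019042-111019341, plus strand), specific granule genes, the capitals mark C/EBP cores, at -138 and -11 in Ngp and -75 in Ltf, counted from the start. In the windows of Prtn3 (chr10:79879417-79879716, plus strand, inside the longer annotated gene) and Elane (chr10:79886062-79886361, plus strand), azurophil genes, they mark PU.1 cores at -94 and -84. In S100a8 (chr3:90668821-90669120, plus strand) the PU.1 core is at -172, and in S100a9 (chr3:90695672-90695971, minus strand) the C/EBP core is at -236. A match is a description of the letters and was not tested as a binding site.
Ngp: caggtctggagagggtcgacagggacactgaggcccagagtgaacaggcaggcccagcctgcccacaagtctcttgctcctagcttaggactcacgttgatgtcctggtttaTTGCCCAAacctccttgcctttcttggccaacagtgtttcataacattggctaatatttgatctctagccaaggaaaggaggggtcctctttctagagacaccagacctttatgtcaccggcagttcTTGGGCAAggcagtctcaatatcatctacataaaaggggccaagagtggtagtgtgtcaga
Ltf: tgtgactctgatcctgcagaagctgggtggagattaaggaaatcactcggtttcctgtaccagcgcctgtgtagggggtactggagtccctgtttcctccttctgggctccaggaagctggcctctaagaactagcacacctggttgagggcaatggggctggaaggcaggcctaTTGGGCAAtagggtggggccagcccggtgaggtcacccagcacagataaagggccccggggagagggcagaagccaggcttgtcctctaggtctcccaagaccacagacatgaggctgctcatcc
Prtn3: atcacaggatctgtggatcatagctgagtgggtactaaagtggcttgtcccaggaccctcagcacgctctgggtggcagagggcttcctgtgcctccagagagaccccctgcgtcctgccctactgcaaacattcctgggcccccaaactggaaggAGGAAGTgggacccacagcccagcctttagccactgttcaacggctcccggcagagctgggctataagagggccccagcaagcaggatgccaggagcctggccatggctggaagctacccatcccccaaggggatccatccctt
Elane: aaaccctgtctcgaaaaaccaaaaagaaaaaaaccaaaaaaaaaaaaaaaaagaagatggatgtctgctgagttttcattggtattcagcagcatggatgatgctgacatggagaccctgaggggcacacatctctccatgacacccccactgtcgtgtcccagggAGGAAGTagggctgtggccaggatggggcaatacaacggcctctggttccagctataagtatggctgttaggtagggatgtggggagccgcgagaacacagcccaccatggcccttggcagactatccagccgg
S100a8: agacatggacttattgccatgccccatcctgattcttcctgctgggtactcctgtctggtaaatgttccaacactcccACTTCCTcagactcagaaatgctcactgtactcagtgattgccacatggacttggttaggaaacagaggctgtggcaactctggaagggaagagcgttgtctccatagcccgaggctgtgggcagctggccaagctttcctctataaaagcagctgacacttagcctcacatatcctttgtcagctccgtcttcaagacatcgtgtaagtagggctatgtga
S100a9: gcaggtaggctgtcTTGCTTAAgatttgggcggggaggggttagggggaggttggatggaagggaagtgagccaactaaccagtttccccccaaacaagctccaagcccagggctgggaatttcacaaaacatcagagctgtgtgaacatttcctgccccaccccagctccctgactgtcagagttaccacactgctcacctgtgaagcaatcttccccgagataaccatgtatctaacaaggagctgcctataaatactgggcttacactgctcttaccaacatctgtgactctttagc

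Transcripts of these genes were scarce in most samples and abundant in a few. The 10 genes together took 0.000146 to 0.00351% of all counts in 67 of the 74 samples. The share was 0.376% in Kidney PNx 3, 0.188% in Heart PNx 1, 0.112% in Heart scrambled cells 3 and 0.0726% in Heart PNx 2. It was 0.0301% in VFAT scrambled cells 4, 0.0119% in VFAT control cells 4 and 0.0113% in Kidney control cells 5. For the description, a library is called high where Ngp or Csf3r reached 10 CPM, a level set after the values were seen. This gave 6 high libraries: Heart PNx 1, Heart PNx 2, Heart scrambled cells 3, Kidney PNx 3, VFAT control cells 4 and VFAT scrambled cells 4. Below, the other samples of a tissue are those that were not high. Just inside the limit was VFAT control cells 4, with Ngp at 19.8 and Csf3r at 6.86 CPM. Just outside was Kidney control cells 5, with Ngp at 8.86 CPM from 11 counts in the shallowest library (1241590 counts).

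**Figure D1:**
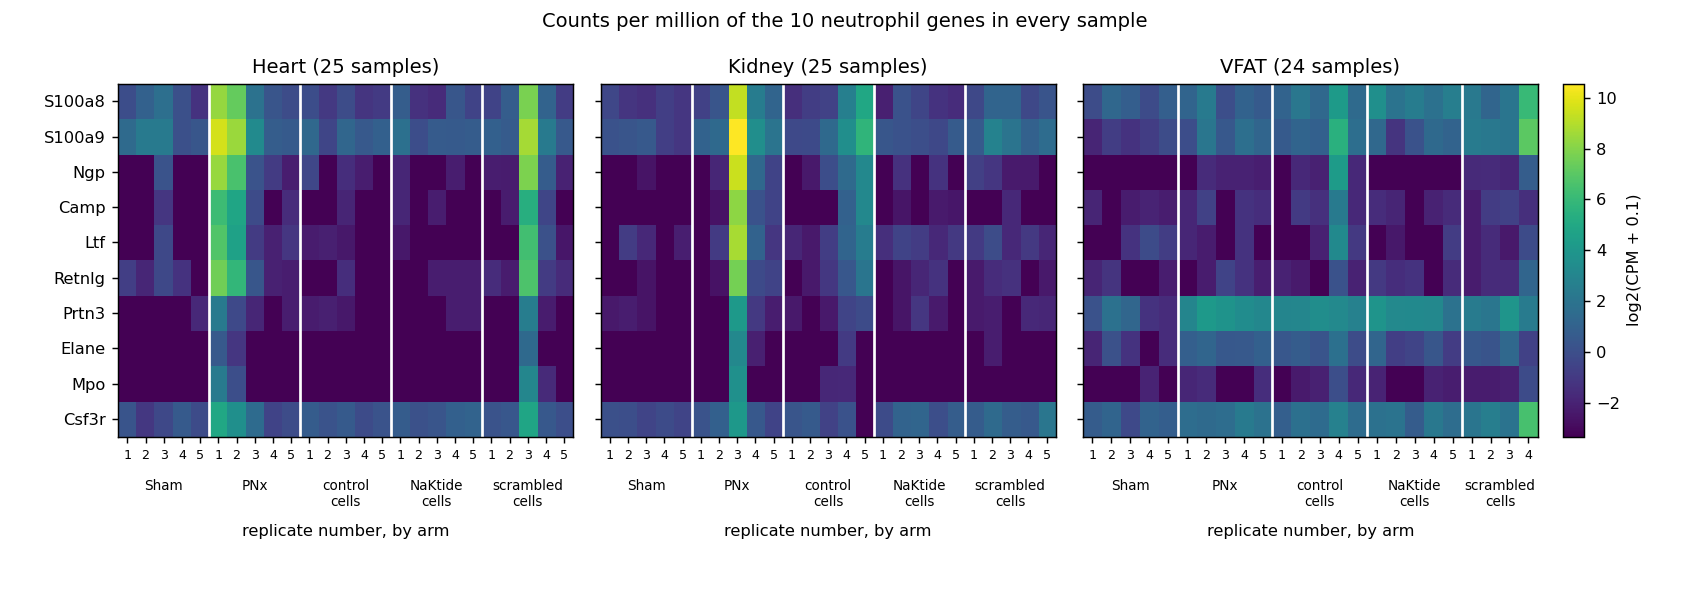
Each column is 1 sample and each line of cells 1 gene, coloured by log2(CPM + 0.1), with tissues as panels and arms set apart by white lines. All 10 genes brighten together in Heart PNx 1, Heart scrambled cells 3 and Kidney PNx 3, only some of them in VFAT scrambled cells 4, and Prtn3 and Elane are raised across the VFAT samples outside Sham.

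Calprotectin messages were the most abundant of the 10 in every high library. In the Heart, S100a9 stood at 798, 352, 9.95, 1.60 and 1.42 CPM in PNx 1 to 5 and at 1.79, 1.48, 406, 5.22 and 1.39 CPM in scrambled cells 1 to 5. The other 3 high libraries had 1470 CPM (12444 counts) in Kidney PNx 3, 133 CPM in VFAT scrambled cells 4 and 44.3 CPM in VFAT control cells 4. In samples that were not high, S100a9 had medians of 1.57 CPM in Heart (0.659 to 9.95, n = 22), 1.46 in Kidney (0.366 to 54.0, n = 24) and 1.92 in VFAT (0.169 to 5.29, n = 22). Each high library thus lay above every sample of its tissue that was not high, and Kidney control cells 5, at 54.0 CPM, was the next highest in Kidney. The level was 509, 225 and 259 times the median of the other samples in the 3 Heart libraries, 1010 times in Kidney PNx 3, and 69.3 and 23.1 times in VFAT scrambled cells 4 and VFAT control cells 4.

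S100a8, the partner subunit, stood at 329, 155, 3.61, 1.17 and 0.8291 CPM in Heart PNx 1 to 5, 220 in Heart scrambled cells 3 and 618 in Kidney PNx 3. In the VFAT libraries it was 18.6 CPM in control cells 4 and 64.0 in scrambled cells 4. It followed S100a9 in which libraries were high. Per length, by the authors' FPKM, S100a9 ranked first and S100a8 second of the 10 genes in all 6 high libraries, with S100a9 at 2920 FPKM in Kidney PNx 3 and 81.2 FPKM in VFAT control cells 4. The third place went to Retnlg in Heart PNx 1 (325 FPKM) and Heart PNx 2 (118 FPKM), to Ngp in Heart scrambled cells 3 (210 FPKM), Kidney PNx 3 (593 FPKM) and VFAT control cells 4 (15.5 FPKM), and to Csf3r in VFAT scrambled cells 4 (23.2 FPKM).

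**Figure D2:**
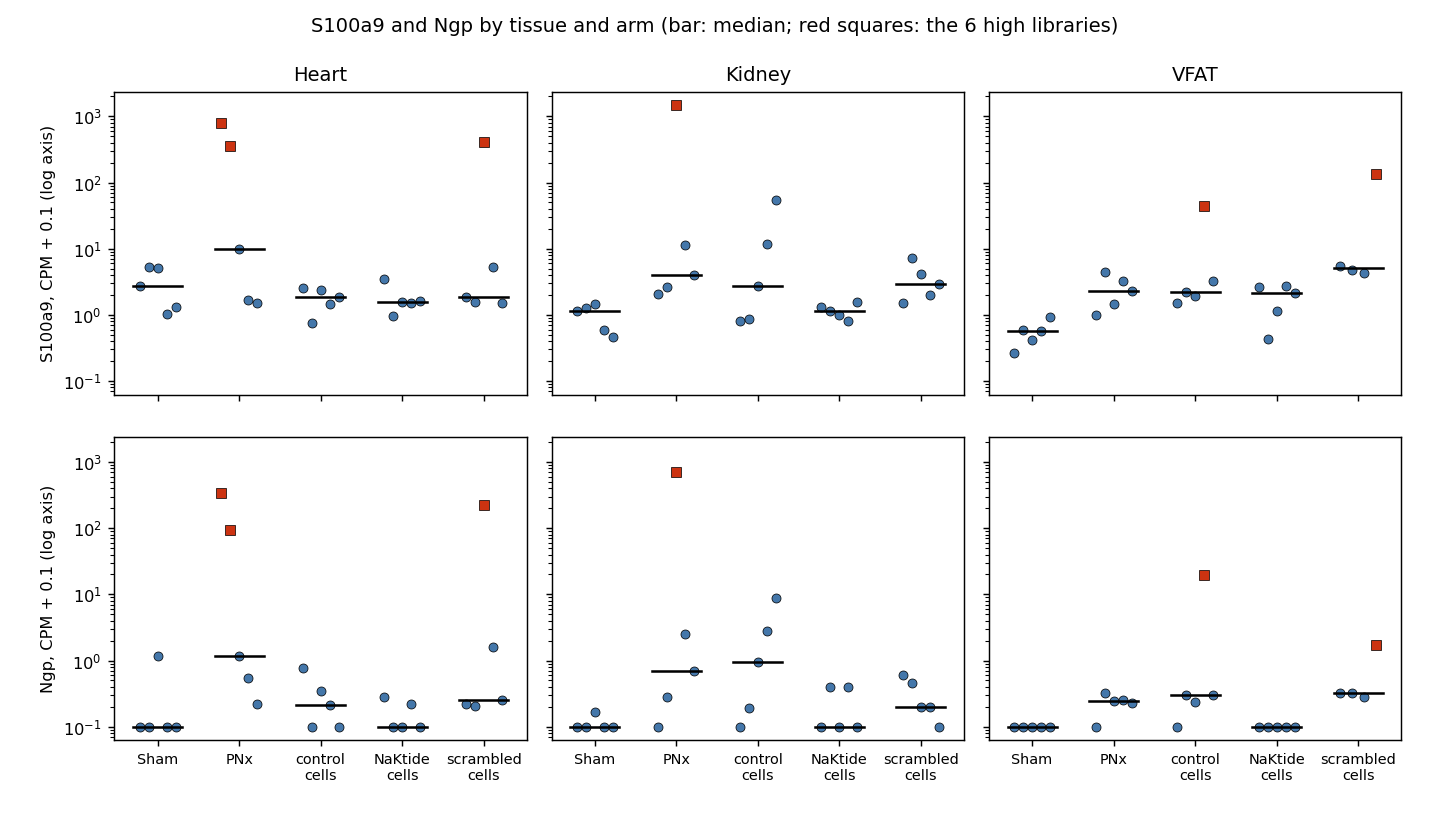
Points are samples, by tissue (panels) and arm, for S100a9 (top) and Ngp (bottom) as CPM + 0.1 on a log axis, with the median as a bar and the 6 high libraries as red squares. S100a9 reached 1470 CPM in Kidney PNx 3, while Ngp was high in 5 of the 6 and stood at 1.63 CPM in VFAT scrambled cells 4.

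The specific and gelatinase granule genes were at or near 0 in most samples and were highest in the Heart and Kidney libraries. Ngp stood at 342, 93.9, 1.06, 0.437 and 0.118 CPM in Heart PNx 1 to 5, and at 0.119, 0.106, 223, 1.52 and 0.154 CPM in Heart scrambled cells 1 to 5. In Kidney PNx 1 to 5 it was 0, 0.177, 699, 2.46 and 0.594 CPM. The value of Kidney PNx 3 rested on 5919 counts. Ltf was at 110, 24.7 and 82.2 CPM in the 3 Heart libraries and 423 in Kidney PNx 3, against at most 0.9796 in the other Heart samples and 5.64 in the other Kidney samples. Camp was at 73.2, 28.4, 40.7 and 290 CPM in the same 4 libraries, and Retnlg at 187, 58.6, 102 and 202 CPM. Camp had no count in 14 of the 22 other Heart samples and 15 of the 24 other Kidney samples.

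The VFAT libraries split on these genes. VFAT control cells 4 had Ngp at 19.8, Ltf at 9.57 and Camp at 5.05 CPM, each the highest in VFAT, whereas Retnlg stood at 1.04 CPM (8 counts). VFAT scrambled cells 4 had Ngp at 1.63 CPM (12 counts), Ltf at 0.815 (6 counts), Camp at 0.272 (2 counts) and Retnlg at 2.17 (16 counts). In that library the granule genes were thus low although S100a9 was at 133 CPM. Ngp had no count in any of the 5 VFAT Sham and 5 VFAT NaKtide samples, and a count of 0 allows no more than 3 counts in a library.

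By FPKM, the 3 azurophil genes lay below the other 7 in the 3 high Heart libraries. In Kidney PNx 3 Csf3r (4.82 FPKM) lay below Prtn3 (10.7) and Elane (9.34 FPKM) and above Mpo (3.76 FPKM). Mpo stood at 5.15, 0.90975 and 8.17 CPM in Heart PNx 1, Heart PNx 2 and Heart scrambled cells 3, and at 12.4 CPM in Kidney PNx 3. It had a count in 1 of the 22 other Heart and 2 of the 24 other Kidney samples. Elane was at 1.39, 0.364, 2.56 and 8.86 CPM in the same 4 libraries, the second of these from 2 counts, and at 0 in all 22 other Heart samples. Prtn3 was at 5.15, 0.728, 5.73 and 17.8 CPM, against at most 0.202 in the other Heart and 0.805 in the other Kidney samples. In VFAT, Prtn3 and Elane followed another pattern, given below.

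Csf3r, the receptor, was counted in 73 of the 74 samples. It stood at 31.2, 11.8 and 28.5 CPM in the 3 high Heart libraries and 16.8 in Kidney PNx 3, against medians of 1.10 and 1.12 CPM in the other samples of these tissues. Its highest value, 92.2 CPM (679 counts), was in VFAT scrambled cells 4, where the other VFAT samples ran from 0.730 to 5.996 CPM (median 2.98). VFAT control cells 4 had 6.86 CPM, just above that range. The libraries with most Csf3r and most Ngp were therefore not the same.

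The make-up of the 10-gene total separated VFAT scrambled cells 4 from the other 5. Ngp, Camp, Ltf and Retnlg made up 37.8, 28.3 and 40.0% of the counts of the 10 genes in Heart PNx 1, Heart PNx 2 and Heart scrambled cells 3, 42.95% in Kidney PNx 3 and 29.85% in VFAT control cells 4. In VFAT scrambled cells 4 they made up 1.63% (95% Wilson interval 1.18 to 2.24%). Csf3r was 0.446 to 5.77% of the total in the other 5 and 30.7% in VFAT scrambled cells 4. These are shares of counts, which are not scaled to gene length, so they compare libraries and not genes. Intervals cover counting error only. The S100a8 share of calprotectin counts lay between 29.2 and 35.2% in all 6.

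**Figure D3:**
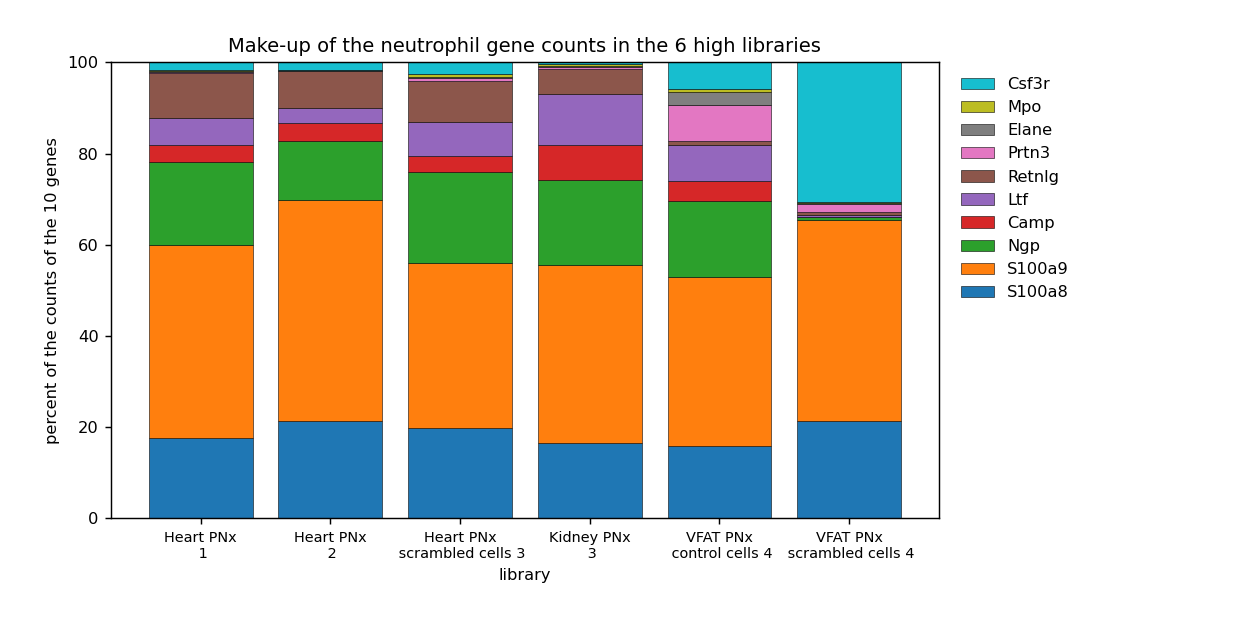
Each bar is 1 of the 6 high libraries and the colours give each gene's percent of the counts of the 10 genes, on an axis from 0 to 100. Granule genes make up 28.3 to 42.95% in 5 libraries and 1.63% in VFAT scrambled cells 4, where Csf3r takes 30.7%.

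Other neutrophil genes were higher in the same Heart and Kidney libraries, and some of them in the VFAT libraries. For 21 late granule and mature neutrophil genes outside the 10, those above every sample of the tissue that was not high were counted. The number was 21 in Heart PNx 1, 20 in Heart PNx 2, 21 in Heart scrambled cells 3 and 21 in Kidney PNx 3. It was 7 in VFAT control cells 4 and 17 in VFAT scrambled cells 4. The 21 genes summed to 58.4 CPM in VFAT control cells 4, 0.312 times the median of the other VFAT samples. In VFAT scrambled cells 4 the sum was 6.03 times that median. The share of all genes above every such sample is not given, so counts of this kind, here and below, are a description. Lcn2, an iron-siderophore binding protein of the specific granules that epithelia also make, stood at 728, 130 and 460 CPM in the Heart libraries against at most 7.85 in the other Heart samples. Ly6g, which marks mature mouse neutrophils, stood at 10.9, 2.37 and 4.997 CPM in these and 10.9 in Kidney PNx 3, with at most 0.357 in the other Heart samples. In VFAT control cells 4 Ly6g had 0 counts, and in VFAT scrambled cells 4 it had 6. Cxcr2, a chemokine receptor of mature neutrophils, was at 27.4, 9.64 and 26.0 CPM in the Heart libraries, 6.38 in Kidney PNx 3 and 13.04 in VFAT scrambled cells 4. Cebpe, a factor of late granule formation, reached 18.3 CPM and Fcnb, a ficolin of immature granulocytes, 8.27 CPM in Kidney PNx 3, against at most 0.119 and 0.09995 CPM in the other Kidney samples. Ctsg, the azurophil protease cathepsin G, was at 1.11, 0.364, 1.58 and 2.48 CPM in the 3 Heart libraries and Kidney PNx 3 and at 0 in VFAT scrambled cells 4. The label of neutrophil genes thus matched a wider set of neutrophil markers in the Heart and Kidney libraries, and matched the VFAT libraries in part.

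Markers of some other blood cells were raised in some of these libraries, and their part in the result was not tested. The 10 monocyte and macrophage markers summed to 1736, 620 and 1017 CPM in Heart PNx 1, Heart PNx 2 and Heart scrambled cells 3, where the other Heart samples ran from 168 to 631 (median 254). They summed to 1164 CPM in Kidney PNx 3 (others 83.0 to 1200) and 812 CPM in VFAT control cells 4 (others 290 to 1437). In VFAT scrambled cells 4 they summed to 7316 CPM, 8.80 times the median of the other VFAT samples. There 9 of the 10 were above every VFAT sample that was not high. Lyz2, lysozyme of macrophages and neutrophils, accounted for 5368 CPM of that, and Il1b, an inflammatory cytokine, stood at 183 CPM there against at most 2.02 in the other VFAT samples. None of the 10 monocyte and macrophage markers was at 0 in a high library. Other lists did not rise in Heart PNx 1, Heart PNx 2 and Heart scrambled cells 3 alike. Eosinophil, basophil and mast cell markers were at 0.0968, 0.759 and 0.763 times the median of the other samples. Mature lymphocyte markers were at 1.19, 1.98 and 0.758 times. In Kidney PNx 3 these lists were at 26.2 (2.60 CPM) and 1.63 times. In VFAT scrambled cells 4 mature lymphocyte markers were at 5.80 times (25.3 CPM). Platelet markers were at 0.582 times the median in VFAT control cells 4.

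Erythroid markers (13 measured of 14) summed to 20608, 8858 and 11126 CPM in the 3 Heart libraries, with 2, 3 and 1 of the markers at 0. The other Heart samples ran from 2306 to 38032 CPM (median 4160), so all 3 lay inside that range. Alas2, the erythroid enzyme of haem synthesis, was at 196 CPM in Heart PNx 1 and 135 CPM in Heart scrambled cells 3. Both were above every Heart sample that was not high (at most 93.7 CPM). In Kidney PNx 3 the sum was 16642 CPM with none at 0, above the 881 to 8650 CPM of the other Kidney samples, and Hbb-bs, a beta globin, stood at 3928 CPM. The 7 platelet markers summed to 33.8, 14.4 and 21.6 CPM in the Heart libraries (others 5.84 to 21.1) and 28.0 CPM in Kidney PNx 3 (others 6.33 to 18.5). Cell division genes summed to 42.6, 15.5 and 51.6 CPM in the Heart libraries, above the 4.81 to 13.5 CPM of the other Heart samples, and to 34.9 CPM in Kidney PNx 3, inside the 8.15 to 44.9 CPM of the others. Skeletal muscle markers reached 18503 CPM and acinar pancreas markers 377 CPM in VFAT scrambled cells 4, where the other VFAT samples ran from 2.097 to 27794 CPM (median 7.18) and from 0 to 12887 CPM (median 0.517).

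The list of neutrophil growth factor, chemokine and calprotectin receptor genes (10 genes) summed to 0.837 to 3.07 times the tissue median in the 6 libraries. The sum was 1.70, 1.03 and 1.63 times the median of the other Heart samples in Heart PNx 1, Heart PNx 2 and Heart scrambled cells 3. There 6, 3 and 5 of the 10 genes were above every Heart sample that was not high, and 2, 3 and 2 were at 0. It was 0.837 times in Kidney PNx 3, with 5 genes above every other Kidney sample and 3 at 0, and 1.57 and 3.07 times in VFAT control cells 4 and VFAT scrambled cells 4. Cxcl1, a chemokine that attracts neutrophils, was at 21.0, 4.73 and 18.0 CPM in the 3 Heart libraries against at most 1.13 in the others, 1.77 in Kidney PNx 3 and 21.6 in VFAT scrambled cells 4. Csf3, the ligand of Csf3r, stood at 0.696, 0 and 0.488 CPM in the Heart libraries (5, 0 and 4 counts) and at 0.354 CPM in Kidney PNx 3 (3 counts). At this depth the Csf3 values are at or near the limit that 0 counts allow.

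No arm and sample number was high in more than 1 tissue. S100a9 of PNx 1 stood at 798 CPM in Heart, 1.99 in Kidney and 0.882 in VFAT. PNx 2 had 352 CPM in Heart, 2.54 in Kidney and 4.30 in VFAT. PNx 3 had 9.95 CPM in Heart, 1470 in Kidney and 1.34 in VFAT. Control cells 4 had 1.35 CPM in Heart, 11.6 in Kidney and 44.3 in VFAT. Scrambled cells 3 had 406, 3.998 and 4.13 CPM, and scrambled cells 4 had 5.22, 1.88 and 133 CPM, in the order Heart, Kidney, VFAT. Among the samples that were not high, the median was 1.57 CPM in Heart, 1.46 in Kidney and 1.92 in VFAT. Most same-numbered counterparts of a high library lay above that median, and Heart PNx 3 was the highest of the other Heart samples. VFAT PNx 1, VFAT PNx 3 and Heart control cells 4 lay below it. A link between same-numbered samples was not tested. The labels do not say that a number marks an animal.

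In Heart, the comparison of PNx with Sham is descriptive, since its libraries led to the choice of genes. S100a8 stood at 0.883, 1.85, 3.21, 0.939 and 0.303 CPM in Sham, so PNx 3, 4 and 5 (3.61, 1.17 and 0.8291 CPM) were within or near the Sham values and only PNx 1 and PNx 2 were far above them. Across all genes edgeR's quasi-likelihood test called 0.126% at an adjusted p (Benjamini-Hochberg over all genes) under 0.05. Nothing is read from the count of members there.

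In Kidney, S100a9, S100a8 and Csf3r passed the expression filter, and all 3 were called higher in PNx than in Sham. Over all genes 16.8% were called, 9.25% of the tested genes as higher. S100a9 stood at 1.99, 2.54, 1470, 11.3 and 3.92 CPM in PNx 1 to 5 and at 1.05, 1.15, 1.38, 0.487 and 0.366 CPM in Sham 1 to 5. Every PNx sample was above every Sham sample, and PNx 3 stood far above the other 4. The log2 fold change was 8.45 (SE 1.81, adjusted p = 0.0112, edgeR). For S100a8 it was 8.34 (SE 1.83, adjusted p = 0.0123, edgeR), from 0.531 to 618 CPM in PNx and 0.276 to 0.666 CPM in Sham, with 1 PNx sample inside the Sham range. Csf3r had a log2 fold change of 2.56 (SE 0.696, adjusted p = 0.0263, edgeR), with 0.594 to 16.8 CPM in PNx and 0.610 to 0.951 CPM in Sham.

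These 3 calls rested on Kidney PNx 3, which held the highest share of these genes of any sample. Libraries that stood out led to the choice of genes, so the calls are given as a description. Without it the log2 fold changes were 2.38 for S100a9 (adjusted p = 0.164), 2.43 for S100a8 (adjusted p = 0.191) and 0.64 for Csf3r (adjusted p = 0.299) in edgeR. Csf3r also lost its call without any 1 of the 5 Sham samples (adjusted p 0.051 to 0.0601, edgeR). The count of members called moved with the samples left out as well, and rose above 3 in some of these fits. Such counts include members that did not pass the filter with all samples, so they are no support. With no expression filter 9 of the 10 were called, all but Mpo, where 3.35% of all genes were. The other 7 members did not pass the filter and had most of their Kidney PNx counts in PNx 3, so that count is no support. Of the 2 tested late granule genes outside the 10, Lcn2 was called higher as well, as were 4 of 10 monocyte and macrophage markers (C1qa, Cd68, Fcgr1 and Lyz2) and all 7 cell division genes.

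In VFAT, Prtn3 and Elane rose after partial nephrectomy without any high library in either group. Prtn3 stood at 1.02, 3.55, 2.29, 0.316 and 0.235 CPM in Sham 1 to 5 and at 7.76, 17.2, 13.8, 10.6 and 8.47 CPM in PNx 1 to 5. The lowest PNx sample was above the highest Sham sample, and the means were 11.6 ± 3.92 and 1.48 ± 1.42 CPM (SD, n = 5 each). The log2 fold change was 2.88 (SE 0.562, adjusted p = 0.00206, edgeR), higher in 5 of 5 samples. Elane stood at 0.169, 0.968, 0.313, 0 and 0.235 CPM in Sham and 1.76, 2.2, 1.33, 1.37 and 1.8 CPM in PNx, again without overlap, with a log2 fold change of 2.24 (SE 0.665, adjusted p = 0.0303, edgeR). These were 2 of 5 members tested, where 13% of all genes were called and 4.83% were called as higher. In Sham, Prtn3 rested on 2 to 22 counts per sample and Elane on 0 to 6. The call of Prtn3 held without any 1 of the 10 samples. That of Elane was lost without PNx 2, PNx 5 or Sham 1, 3, 4 or 5 (log2 fold changes 1.94 to 2.22, adjusted p 0.0551 to 0.0889, edgeR).

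S100a9 and Csf3r did not pass the test in the same comparison. S100a9 stood at 0.882, 4.30, 1.34, 3.19 and 2.18 CPM in PNx and 0.169, 0.484, 0.313, 0.474 and 0.823 CPM in Sham, which did not overlap, with a log2 fold change of 2.32 (SE 1.21, adjusted p = 0.224, edgeR). Csf3r ran from 2.65 to 5.17 CPM in PNx and 0.730 to 2.097 CPM in Sham, also without overlap, with a log2 fold change of 1.10 (SE 0.704, adjusted p = 0.339, edgeR). Leaving the high libraries of the other arms out of the shared fit gave 2.31 (SE 0.549) and 1.09 (SE 0.328, edgeR). Ngp or Csf3r itself picked those libraries after the values were seen, so no call is read from that fit. The fold changes moved by 0.01 and the standard errors became smaller.

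Neighbouring genes rose with Prtn3 and Elane in VFAT. Plppr3, a phospholipid phosphatase-related gene that overlaps Prtn3 on the other strand, stood at 1.41 to 9.84 CPM in Sham and 22.2 to 34.3 CPM in PNx, with a log2 fold change of 2.66 (SE 0.465, adjusted p = 0.000829, edgeR). Cfd, which encodes the adipocyte product adipsin, stood at 432 to 3261 CPM in Sham and 4121 to 6353 CPM in PNx, with a log2 fold change of 1.62 (SE 0.382, adjusted p = 0.00799, edgeR). Over the 24 VFAT samples the correlation of Prtn3 (log2(CPM + 0.1), Pearson's r) was 0.946 with Plppr3 and 0.835 with Cfd, and 0.223 with Mpo and 0.268 with Ngp. That of Elane was 0.916 with Cfd, 0.775 with Plppr3 and 0.336 with Mpo. Genes at other places in the genome gave values of similar size. For Hp, which encodes haptoglobin, r was 0.877 with Prtn3 and 0.742 with Elane, and for Adipoq, the adipocyte hormone adiponectin, 0.811 with Prtn3 and 0.8915 with Elane. For Plin1, the lipid droplet protein perilipin 1, it was 0.695 with Prtn3 and 0.8075 with Elane. In VFAT these protease genes thus varied with their neighbours and with adipocyte genes alike. In Heart, over 25 samples, Prtn3 had an r of 0.932 with Mpo, 0.243 with Plppr3 and -0.142 with Cfd, and the value for Mpo rests on the 3 high libraries, since it had a count in 1 of the 22 others. Samples share their depth and tissue make-up in these values.

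The samples behind this comparison differed in tissue markers, and the part of this in the result was not tested. The 6 epididymis markers summed to 154 to 18376 CPM in VFAT Sham and 0.176 to 53.2 CPM in VFAT PNx, and 5 of the 6 were called lower in PNx. All 7 skeletal muscle markers were called lower in PNx. The 5 adipocyte markers summed to 2202 to 14988 CPM in Sham and 12925 to 14522 in PNx, and none was called. Adipoq, the adipocyte hormone adiponectin, had a log2 fold change of 1.10 (SE 0.409, adjusted p = 0.0784, edgeR). Prtn3 counts per 1000 Cfd counts had a median of 1.06 in Sham (0.173 to 1.19) and 2.08 in PNx (1.52 to 3.35), so Prtn3 differed by more than Cfd. The Sham ratios rested on 2 to 22 Prtn3 counts per sample, the lowest of them on 2. Of the 8 tested late granule and mature neutrophil genes outside the 10, Mmp9 (a gelatinase) was called higher and none lower, with a median log2 fold change of 1.11 beside 0.01 over all genes. The summed level of all 21 ran from 41.6 to 3831 CPM in Sham and 21.5 to 567 CPM in PNx, with Lcn2 at a log2 fold change of -3.31 (SE 1.54, adjusted p = 0.166, edgeR). Monocyte and macrophage markers summed to 290 to 544 CPM in Sham and 636 to 1242 CPM in PNx, and C1qa, Csf1r, Ly6c2 and Lyz2 of the 10 were called higher.

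**Figure D4:**
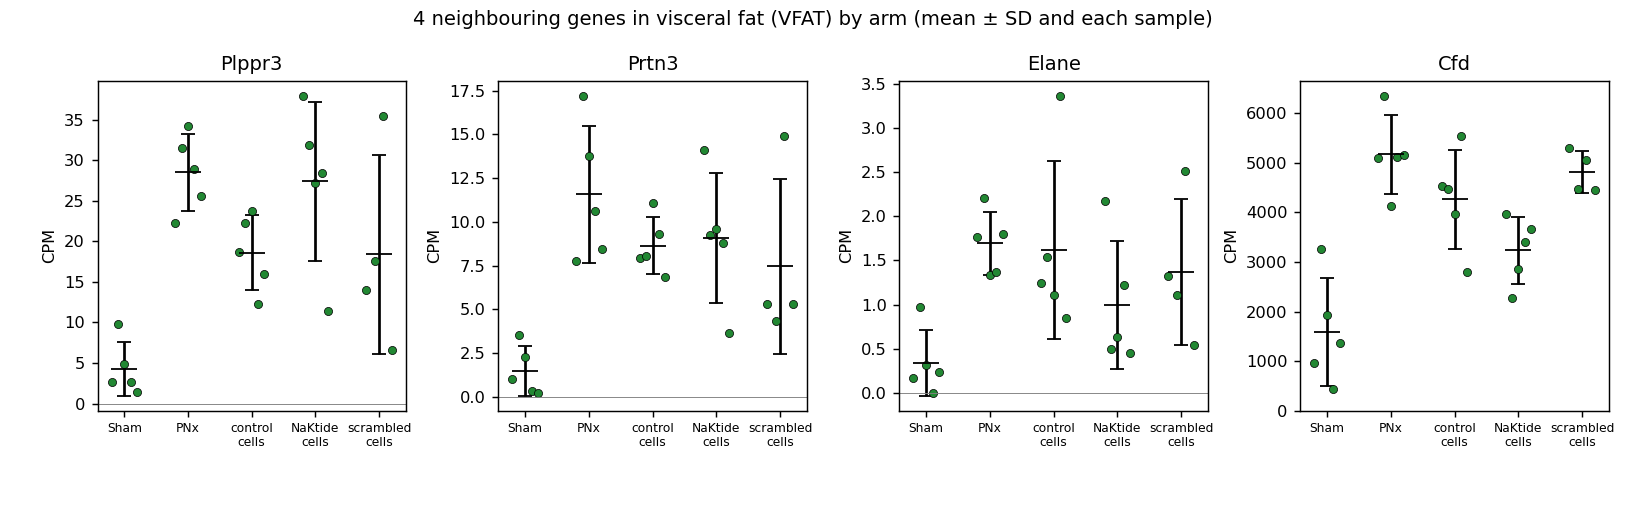
CPM of 4 neighbouring genes on chromosome 10 in VFAT by arm, each point a sample, with the mean and SD (n = 5, scrambled cells n = 4) as lines. All 4 have their lowest mean in Sham, where Prtn3 averages 1.48 CPM against 11.6 CPM in PNx.

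In the cell arms Prtn3 averaged 8.64 ± 1.61 CPM with control cells, 9.08 ± 3.73 with NaKtide cells (both SD, n = 5) and 7.46 ± 5.01 with scrambled cells (SD, n = 4). No difference between these arms was called by edgeR (log2 fold changes -0.40 for NaKtide cells against PNx, SE 0.507, adjusted p = 0.969, and 0.05 for NaKtide against scrambled cells, SE 0.537, adjusted p = 0.981).

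Between NaKtide and scrambled cells in VFAT, S100a9 and Csf3r were called lower with NaKtide cells, 2 of 5 members tested where 2.36% of all genes were called and 2.12% were called as lower. S100a9 stood at 2.49, 0.333, 1.04, 2.58 and 2.04 CPM with NaKtide cells and 5.29, 4.66, 4.13 and 133 CPM with scrambled cells, which did not overlap. Its log2 fold change was -4.58 (SE 1.17, adjusted p = 0.0386, edgeR). Csf3r stood at 3.45, 3.83, 1.57, 4.56 and 3.06 CPM with NaKtide cells and 4.07, 5.996, 3.81 and 92.2 CPM with scrambled cells, which overlapped, at -3.19 (SE 0.727, adjusted p = 0.0206, edgeR). When the high libraries were left out, the values were -1.66 (adjusted p = 0.213) and -0.72 (adjusted p = 0.347, edgeR), so both calls rested on VFAT scrambled cells 4. The call of S100a9 was also lost without any 1 of the 5 NaKtide samples (adjusted p 0.0525 to 0.123) and that of Csf3r without NaKtide 2, 3 or 5 (adjusted p 0.0534 to 0.083, edgeR). Cxcl1 was called in this comparison too, at -3.26 (SE 0.866, adjusted p = 0.0478, edgeR). Genes of other cell types were called lower beside them: all 7 skeletal muscle markers, both pancreas markers tested, 2 of 3 mature lymphocyte markers (Gzma and Ncr1), and 1 of 10 monocyte and macrophage markers (Lyz2). The late granule and mature neutrophil genes Clec4d, Fpr2 and Mmp9 were called lower as well. Their part in the result was not tested.

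Csf3r was also called higher with scrambled than with control cells in VFAT, at 2.97 (SE 0.722, adjusted p = 0.0337, edgeR), 1 of 5 members tested where 2.41% of all genes were called and 1.94% as higher. With control cells it stood at 1.71, 3.37, 2.76, 6.86 and 2.89 CPM. Without the high libraries the value was 0.96 (adjusted p = 0.301, edgeR), so this call rested on VFAT scrambled cells 4 as well. It was lost without control cells 1, 2, 3 or 5 too (adjusted p 0.0607 to 0.102, edgeR). Without control cells 4, itself a high library, 2 members were called. The share of all genes called in that fit is not given, so this count is a description. Called higher in the same comparison were all 7 skeletal muscle markers (Myh4 at 12.53 on the log2 scale), both pancreas markers tested (Pnlip at 16.41), 2 of 10 monocyte and macrophage markers (Adgre1 at 2.70 and Lyz2 at 2.34) and 2 of 8 other late granule and mature neutrophil genes (Clec4d and Fpr2). Their part in the result was not tested. These comparisons share the scrambled samples.

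No member was called by edgeR in the other 11 of the 15 comparisons within tissues, of which the 5 in Heart are not read because its libraries led to the choice of genes. The 6 in Kidney and VFAT held 22 member tests, of which 7 had an unadjusted p under 0.05, 0 were called by DESeq2 and 7 by limma's voom. DESeq2 gave no adjusted p for any of the 3 Kidney members and for 3 or 4 of the 5 VFAT members there. The voom calls stood beside wide backgrounds: 2 of 3 members were called in Kidney NaKtide cells against PNx beside 41.5% of all genes, 1 of 3 in Kidney NaKtide against scrambled cells beside 27%, 2 of 3 in Kidney control cells against PNx beside 12.8% and 2 of 5 in VFAT NaKtide cells against PNx beside 21.6%. In Kidney, NaKtide cells against PNx had log2 fold changes of -8.36 for S100a9 (SE 1.79, adjusted p = 0.258) and -8.20 for S100a8 (SE 1.78, adjusted p = 0.258, edgeR), with S100a9 at 0.712 to 1.48 CPM in NaKtide samples. Kidney control cells held the next highest calprotectin levels, with S100a9 at 11.6 CPM in sample 4 and 54.0 CPM in sample 5 and 0.721 to 2.59 CPM in the other 3.

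The 2 calprotectin messages did not keep the same ratio in every tissue, a comparison made after the values were seen. In Heart and Kidney the S100a8 share of the calprotectin counts averaged 25.9 to 35.7% in each of the 10 groups. In VFAT it averaged 76.3 ± 10.2% in Sham, 48.55 ± 14.04% in PNx, 52.2 ± 14.7% with control cells, 78.28 ± 13.15% with NaKtide cells (all SD, n = 5) and 40.6 ± 9.59% with scrambled cells (SD, n = 4). The Sham values rested on 6 to 22 counts per sample and those with NaKtide cells on 40 to 181. NaKtide samples held 57.5 to 92.0% and scrambled samples 32.3 to 50%, which did not overlap.

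No test of this share is given, since the measure and the tissue were chosen after the values were seen. The mean of PNx minus that of Sham was -27.76 points (-33.27 to -25.18 without any 1 sample). NaKtide cells minus PNx gave 29.73 points (26.3 to 35.23) and NaKtide minus scrambled cells 37.64 points (34.21 to 42.83). Control cells minus PNx gave 3.65 points and scrambled minus control cells -11.56 points, smaller than the SD with control cells. In absolute terms S100a8 was at 12.0, 3.83, 5.64, 3.50 and 6.01 CPM with NaKtide cells and 2.12, 5.18, 0.89, 1.98 and 1.41 CPM in PNx, with a log2 fold change of 1.4 (SE 0.814, adjusted p = 0.969, edgeR).

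**Figure D5:**
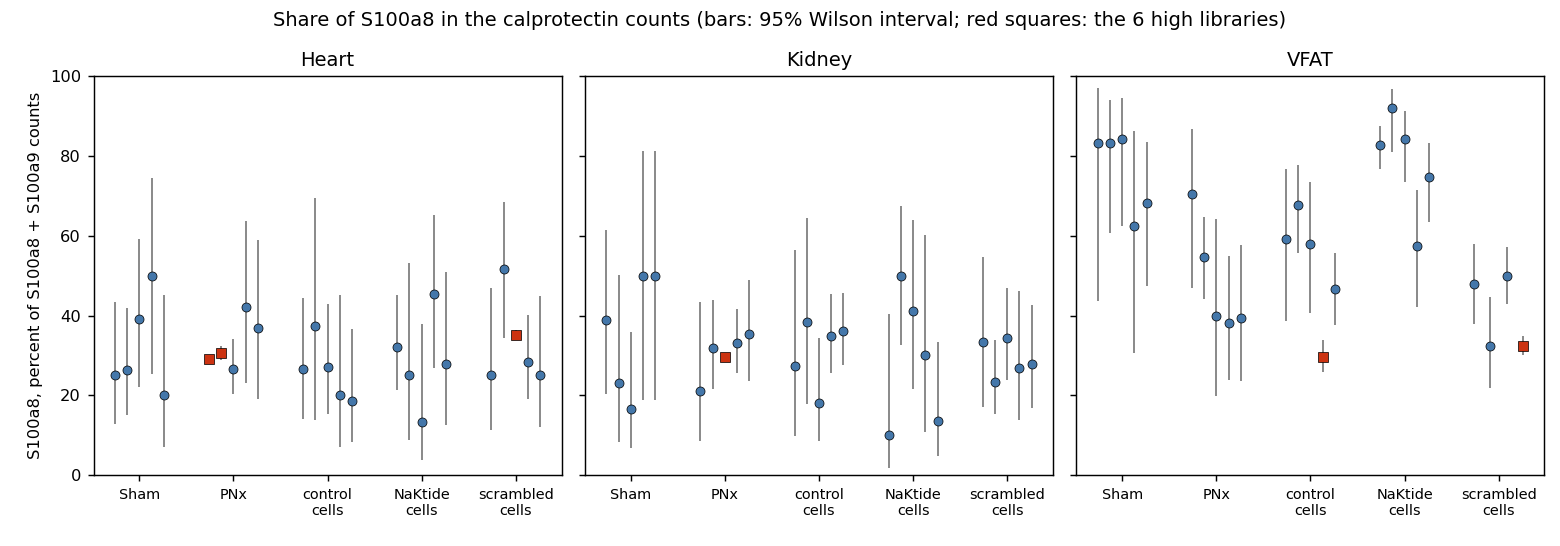
S100a8 as percent of S100a8 plus S100a9 counts in each sample, by tissue and arm, with the 95% Wilson interval as a line and the 6 high libraries as red squares. The high libraries lie between 29.2 and 35.2%, and the VFAT samples of Sham and NaKtide cells lie highest, up to 92.0%.

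Levels were compared between tissues in 1 fit over all 74 samples on the mean over the 5 arms, with tissues treated as independent. Most genes differ between tissues (78.2% called for Kidney against Heart, 73.6% for VFAT against Heart and 75% for VFAT against Kidney), so a call is common there. Heart values over all samples are described without a test, since its libraries led to the choice of genes. Prtn3 was higher in VFAT than in Kidney by 4.53 (SE 0.537, adjusted p = 2.18e-11, edgeR), in log2 units. Its median was 8.01 CPM in VFAT and 0.0955 CPM in the Kidney samples that were not high, with 0 in Heart. Elane was higher in VFAT than in Kidney by 3.97 (SE 0.756, adjusted p = 9.37e-06, edgeR).

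For the other members the order of tissues was less plain. Csf3r was higher in VFAT than in Kidney by 1.27 (SE 0.365, adjusted p = 0.00151, edgeR), and no difference of S100a9 or S100a8 between VFAT and Kidney was called. Without the high libraries, a choice made after the values were seen, 72.8% of all genes were called between VFAT and Heart and 73.8% between VFAT and Kidney. S100a8 was then higher in VFAT, by 0.90 against Heart (SE 0.361) and 0.91 against Kidney (SE 0.349, edgeR). S100a9 was lower, by -1.04 (SE 0.353) and -0.94 (SE 0.35, edgeR). No test of a member is read from this fit, since Ngp or Csf3r picked the libraries left out. The medians of S100a9 without these libraries were 1.92 CPM in VFAT and 1.57 in Heart, the opposite order to the fitted means. Its mean CPM were 2.05 in VFAT and 2.50 in Heart, in the fitted order. CPM were computed on library totals, whereas the fit used TMM factors. The tissue medians of Csf3r without the high libraries were 1.10 CPM in Heart (SD 0.530), 1.12 in Kidney (SD 0.874) and 2.98 in VFAT. The log2 fold change of Csf3r in Kidney against Heart was -0.31 without them and -0.93 (SE 0.373, edgeR) over all samples. Both are a description, since Csf3r itself helped to pick the libraries left out.

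The effect of partial nephrectomy was compared between Kidney and VFAT as an interaction, where 11.7% of all genes were called. S100a8 (difference of log2 fold changes 7.60, SE 2.25, adjusted p = 0.0185) and Ltf (10.34, SE 3.50, adjusted p = 0.042) were called by edgeR, 2 of 9 members tested. Ltf did not pass the expression filter in either tissue alone and was tested only in the joint fit, so its call is given as a description. Without Kidney PNx 3 the differences were 1.83 (adjusted p = 0.62) and 3.31 (adjusted p = 0.487, edgeR). Both calls thus rested on that library, and that of S100a8 is given as a description as well. Ltf also lost its call without any 1 of 12 other samples (adjusted p 0.0511 to 0.145, edgeR).

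The genes with the most similar pattern were found by Pearson's r of log2 CPM over the samples of a tissue, given as a description since the high libraries and their depth set much of it. In Heart (25 samples), Lcn2 was closest to S100a8 (r = 0.974) and to Ngp (r = 0.978). Next to S100a8 came Fkbp5 (a glucocorticoid-induced immunophilin, 0.920), Lrg1 (a leucine-rich glycoprotein of neutrophil granules and plasma, 0.919), Ifitm1 and Mt2, and next to Ngp came Fkbp5, Serpina3n, Socs3 and Fcgr2b. Without the 3 high Heart libraries the r with S100a8 was 0.747 for Lcn2, 0.576 for Lrg1 and 0.144 for Fkbp5 (22 samples). In Kidney (25 samples) Lrg1 was closest to both S100a8 (0.918) and Ngp (0.916), followed by Kng1, Arrb2, Cox6b2 and Ptpn18 for S100a8 and Hmg20b, Sgf29, Limd2 and Cited4 for Ngp. In VFAT (24 samples) the genes closest to S100a8 were Klhl6 (0.835), Fyb, Coro1a, Rac2 and Cxcl1, several of them leukocyte genes, and those closest to Ngp were C2cd2l (0.759), Slc27a1, Tcn2, Cbr1 and Gm13091.

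Among the 10 genes themselves, the 45 pairs had a median r of 0.935 in Heart (0.886 to 0.989), 0.904 in Kidney (0.315 to 0.979) and 0.460 in VFAT (-0.217 to 0.851). Without the high libraries the medians were 0.478 in Heart (36 pairs, since Elane was at 0), 0.528 in Kidney and 0.316 in VFAT. The genes differed in how far they stood above the other samples: in Kidney PNx 3 Csf3r was 15.02 times, the calprotectin sum 992 times and the specific and gelatinase granule sum 2860 times the median of the other Kidney samples.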

How the data were processed

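RNA-seq values of 74 mouse samples (76 libraries) were used. The authors deposited raw counts per gene and FPKM (fragments scaled to gene length and library size), both per the file headers. Their processing notes name Trimmomatic 0.38, HISAT2 2.1.0 and the build GRCm38. The sources used here name no counting tool, annotation release or strandedness. The authors' normalized table was not used. In 2 samples there was a second library, whose counts were summed. CPM were computed on library totals, and levels of different genes were ranked only by FPKM, while shares of counts compare libraries.

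Each tissue was fitted over its 5 arms with edgeR 4.0.16 (TMM, filterByExpr, quasi-likelihood test, R 4.3.3), with p-values adjusted by Benjamini-Hochberg over all genes and called under 0.05. A fit of 15 groups gave tissue contrasts and the interaction. Standard errors were derived from the fold change and F. Checks on simulated data were run first. DESeq2 1.42.0, limma 3.58.1 (voom), other filters and samples left out in turn were alternatives. Wilson intervals (95%) used scipy 1.17.1.

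The genes and marker lists were chosen with earlier results of these data known. The high-library level (10 CPM) and the S100a8 share were chosen after the values were seen. Genes named were the 10 members, the 5 genes of highest Pearson's r with S100a8 and with Ngp in each tissue, up to 4 abundant genes of a list, and Lcn2, Ly6g, Cxcr2, Ctsg, Csf3, Cxcl1, Hbb-bs and Alas2. Neighbours of members, Adipoq, Cebpe, Fcnb, Il1b and list genes named because they were called were chosen after their values were seen.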

Additional observations from a re-analysis of the deposited data

Results flagged for a closer look

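In 42 of 136 combinations of a gene and a group that were examined, 1 sample stood apart from its group by Dixon's criterion at the 95% level, with at least 10 counts. A rate of about 1 in 20 groups by chance holds only for normally distributed values. The criterion was applied to CPM in small groups, many of them skewed or near the floor. The 42 therefore cannot be read as an excess over chance and are a description. The 10 genes share their samples, so the combinations are not independent. The 42 include combinations from Heart. That the Heart libraries stood apart was known and led to the choice of genes, so their values are a description.

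All 10 genes stood apart in Kidney PNx 3: S100a8 618 CPM, S100a9 1470, Ngp 699, Camp 290, Ltf 423, Retnlg 202 (201.9), Prtn3 17.8, Elane 8.86, Mpo 12.4 and Csf3r 16.8 CPM. All 10 also did so in Heart scrambled cells 3: S100a8 220 (219.9), S100a9 406, Ngp 223, Camp 40.7, Ltf 82.2, Retnlg 102, Prtn3 5.73, Elane 2.56, Mpo 8.17 and Csf3r 28.5 CPM. In Heart PNx 1, where PNx 2 was high too, Ngp (342 CPM), Ltf (110.4 CPM), Prtn3 (5.15 CPM), Elane (1.39 CPM) and Mpo (5.15 CPM) stood apart.

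In VFAT control cells 4 the criterion was met by S100a8 (18.6 CPM), S100a9 (44.3 CPM), Ngp (19.8 CPM), Camp (5.05 CPM), Ltf (9.57 CPM) and Elane (3.36 CPM). In VFAT scrambled cells 4 it was met by S100a8 (64.0 CPM), S100a9 (133 CPM), Ngp (1.63 CPM), Retnlg (2.17 CPM) and Csf3r (92.2 CPM). Outside the 6 high libraries it was met in Kidney control cells 5 by S100a8 (30.6 CPM), S100a9 (54.0 CPM) and Camp (8.86 CPM), in VFAT PNx 2 by S100a8 (5.18 CPM), in Heart NaKtide cells 1 by S100a9 (3.39 CPM, 3.385 before rounding) and in VFAT scrambled cells 3 by Prtn3 (14.9 CPM).

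The effect of partial nephrectomy differed between Kidney and VFAT by the interaction test for S100a8 (7.60 on the log2 scale) and Ltf (10.34 on the log2 scale), and neither call held without Kidney PNx 3. Both calls are therefore given as a description, and Ltf passed the expression filter in neither tissue alone.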

How the results depend on the processing

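Counts of members called moved with the method. With DESeq2 the counts were 3 in Heart PNx against Sham, 2 in Heart control cells against PNx and 2 in Heart NaKtide cells against PNx (258, 3 and 21 of all 15091 genes), where edgeR called 0. These libraries led to the choice of genes, so nothing is read from the Heart counts. With voom they were 2 in Kidney NaKtide cells against PNx, 1 in Kidney NaKtide against scrambled cells, 2 in Kidney control cells against PNx and 2 in VFAT NaKtide cells against PNx, against 0, in fits that called 6773, 4401 and 2088 of 16307 genes and 3795 of 17552. For Kidney PNx against Sham (3 called) the count was 0 without the high libraries, 9 without the expression filter (1007 of 30086 genes) and 0 in a fit of those 2 arms. For VFAT NaKtide against scrambled cells (2 called) it was 0 without the high libraries, 1 with voom (841 of 17552 genes), 0 in 2 arms, 0 with the replicate block and 1 with second libraries kept separate. For VFAT scrambled against control cells (1 called) all 5 of these gave 0. For VFAT PNx against Sham (2 called) it was 4 without the high libraries (2656 of 18109 genes), 1 in 2 arms and 1 with the replicate block. The 4 is a description, since Ngp or Csf3r picked the libraries left out. The share of all genes called is not given for fits of 2 arms, with the replicate block or with second libraries kept separate. Counts from those fits are a description too. Between tissues, Kidney against Heart (1) gave 2 with DESeq2 and 0 with voom, beside 15130 and 15976 of all genes. VFAT against Heart (3) gave 5 with DESeq2 and 6 without the high libraries, beside 14282 and 14176 genes. VFAT against Kidney (3) gave 6 and 7, beside 14624 and 14359 genes. Counts that involve Heart or leave out the high libraries are a description. The interaction (2) gave 5 with DESeq2 (2786 genes), 0 without the high libraries, 1 without the filter (1744 genes) and 0 with the replicate block. DESeq2 gave no adjusted p for the members called in Kidney PNx against Sham and in both VFAT cell comparisons, so no count is given there.

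Leaving out each sample in turn gave counts from 0 to 6 for Kidney PNx against Sham, 0 to 2 for VFAT NaKtide against scrambled cells, 1 to 2 for VFAT PNx against Sham, 0 to 2 for VFAT scrambled against control cells and 0 to 2 for the interaction. The share of all genes called is not given for these fits, so the counts are a description. No result changed direction past its threshold. The replicate numbers were not used as pairs in the main fits, since in no comparison did every same-numbered pair correlate over 0.1. That rule cannot show that pairing is absent. In Kidney control cells against PNx 4 of 5 pairs did so (mean r 0.345, and -0.0834 for other numbers). In Heart NaKtide cells against PNx it was 4 of 5 as well (0.217 and -0.043). With the replicate block Csf3r in Kidney PNx against Sham was 2.03 (adjusted p = 0.0531, edgeR) and Elane in VFAT 2.27 (adjusted p = 0.0529, edgeR). Levels under about 1 CPM rest on few counts. The high-library setting was chosen after seeing the data.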
